A study of Mus musculus with 2 samples.

Results

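The levels of 5 genes of venous identity and apelin signaling, *Nr2f2*, *Aplnr*, *Apln*, *Ephb4* and *Emcn*, were followed in single PK44 cells of the mouse yolk sac. The genes were chosen by name, and all 5 had a row among the 23154 genes measured. PK44 cells are endothelial cells sorted from C57BL/6 embryos at E10.0 as CD41-CD43-CD45-CD31+CD201+Kit+CD44+, a gate that enriches for cells on the way from endothelium to blood stem cells. A single condition was sequenced in 2 libraries, replicate 1 with 43 cells and replicate 2 with 44 cells, and no cell number was shared between them. Nothing in the labels says how many embryos each library drew on, so the spread between libraries may be technical. Transcripts were counted by unique molecular identifiers (UMIs) near their 3′ end, so that levels were given as CPM, UMI counts scaled to a total of 1000000, without division by gene length. Replicate 1 held 8932527 counts, with 13218 to 702028 per cell and a median of 141577. Replicate 2 held 12706360 counts, with 51620 to 956593 per cell and a median of 238898.

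Arteries and veins differ in their endothelium before and after blood flow begins. *Nr2f2* encodes COUP-TFII, a nuclear receptor that holds venous identity by damping Notch signaling, and *Ephb4* encodes the venous receptor for the arterial ligand ephrin-B2. *Apln* encodes the secreted peptide apelin, made by sprouting endothelium, and *Aplnr* its G protein-coupled receptor, found on veins and venous progenitors. *Emcn* encodes endomucin, a sialomucin of venous and capillary surfaces. *Gja5* encodes the gap junction protein connexin 40, a mark of arterial endothelium, and served here as the arterial reference.

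The cells carried the endothelial genes expected of the gate. All 8 endothelial markers examined had counts in both libraries, with summed levels of 2763 and 4776 CPM in replicates 1 and 2. Of these, *Cdh5*, the VE-cadherin of endothelial junctions, had a count in all 87 cells. All 7 hematopoietic markers also had counts, at 634 and 282 CPM summed, led by *Runx1*, the transcription factor needed for blood emergence. The pan-leukocyte gene *Ptprc* (CD45), which the gate excludes, was found in 3 of 87 cells, and *Spn* (CD43) in 9. *Itga2b*, which encodes CD41, had a count in 56 of 87 cells and at least 10 in 19, although the sort was negative for the protein. The 4 genes of the positive sort gate, *Pecam1*, *Procr*, *Kit* and *Cd44*, all had counts, with 955 and 930 CPM summed.

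Markers of other cell types were mostly low. None of the 7 visceral endoderm markers had a count in replicate 1, and 3 of 7 had one in replicate 2, led by *Apoa1*, with 16.4 CPM summed. *Apob*, *Alb*, *Amn* and *Cubn* were at 0 in both libraries. Of the erythroid markers *Hbb-bh1* was at 7.05 and 3.54 CPM and *Hbb-y* at 3.13 and 12.1 CPM. Of the 6 macrophage markers 4 had counts, at 214 and 191 CPM summed, mostly *Mrc1*, while *Cx3cr1* and *Adgre1* were at 0. The 3 lymphatic markers summed to 22.2 and 93.5 CPM, nearly all *Flt4*, and *Prox1* had counts in 1 cell.

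Mesenchymal markers stood apart. All 6 had counts, at 837 and 330 CPM summed, with *Col1a2* highest in replicate 1 and *Col1a1* in replicate 2. These counts lay mostly in 3 cells, 2 of replicate 1 and 1 of replicate 2, each with at least 100 counts of *Col1a1*, *Col1a2*, *Col3a1* and *Lum*. They are called collagen-high cells here. Low counts of the same genes were widespread in the other cells. From 1 to 9 counts of *Col1a2* were seen in 30 of the 41 other cells of replicate 1 and in 36 of the 43 of replicate 2. They may be carry-over between cell barcodes of a pooled library, which was not tested and would bear on every share of cells with a count. For the 5 genes and *Gja5* such shares are therefore given beside those with at least 10 counts.

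Among the 5 genes, *Emcn* was the most abundant and *Apln* the least. *Emcn* averaged 124 ± 88.7 CPM (SD, n = 2 libraries), *Aplnr* 62.2 ± 14.8 CPM, *Ephb4* 40.6 ± 20.3 CPM, *Nr2f2* 18.5 ± 5.81 CPM and *Apln* 8.07 ± 4.61 CPM. The same order from *Emcn* over *Aplnr* to *Ephb4*, *Nr2f2* and *Apln* was seen in each library. Library values overlapped between *Emcn* and *Aplnr* and between *Aplnr* and *Ephb4*, while those of *Nr2f2* lay below those of *Ephb4* and above those of *Apln*. The order of *Nr2f2* and *Apln* in replicate 2 hung on single cells, as without the highest cell of each gene they were at 2.36 and 6.81 CPM. *Gja5* averaged 371 ± 345 CPM, since it was 4.86 times higher in replicate 2 than in replicate 1.

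Apelin signaling was read from its ligand and its receptor. *Apln* lies at chrX:48025146-48034853 on the minus strand of GRCm38 and *Aplnr* at chr2:85136225-85139923 on the plus strand. *Apln* reached 4.81 and 11.3 CPM in replicates 1 and 2. In replicate 1 all 43 of its counts came from a single cell. In replicate 2, 9 cells had a count, and the highest held 59, 45 and 21. Over both libraries *Apln* had a count in 10 of 87 cells (11.5%, exact 95% confidence interval 5.65 to 20.1%) and at least 10 counts in 4.

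The receptor was far more widely detected than the ligand. *Aplnr* reached 51.7 and 72.7 CPM in replicates 1 and 2. It had a count in 22 of 43 and 38 of 44 cells, and in 60 of 87 over both (69.0%, exact interval 58.1 to 78.5%). Most of these cells held few counts, as at least 10 were seen in 14 cells (16.1%, exact interval 9.09 to 25.5%), 6 of replicate 1 and 8 of replicate 2. The highest cell held 179 counts in replicate 1 and 353 in replicate 2, or 38.7% and 38.2% of all *Aplnr* counts of the library. Thinned to 20000 counts per cell, *Aplnr* was found in 18 of 86 cells and *Apln* in 7. *Aplnr* was thus present at high level in a minority of cells in either library.

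Ligand and receptor were compared cell by cell. All 10 cells with an *Apln* count also had an *Aplnr* count, but after thinning to 20000 counts this held for 0 of 1 in replicate 1 and 3 of 6 in replicate 2. No cell of replicate 1 held at least 10 counts of both *Apln* and *Aplnr*, and 1 cell of replicate 2 did, of 3 with that many of *Apln*, with 21 counts of *Apln* and 89 of *Aplnr*. In replicate 2 that is 12.5% of the cells with at least 10 *Aplnr* counts, against 5.56% of the others, and rests on 1 cell. Of the apelin system genes, 9 had counts in both libraries. *Apela*, the second ligand, and the peptidase *Mme* were at 0 in all 87 cells (exact interval 0 to 4.15% of cells with a count). This limits cells with a count, not cells that hold the transcript. *Gnai2*, an inhibitory G protein subunit through which the receptor signals, was the most abundant at 692 and 1047 CPM. Its paralogue *Gnai3* reached 132 and 107 CPM. *Arrb1*, an arrestin that binds activated receptors, reached 90.7 and 67.4 CPM.

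*Ephb4*, at chr5:137350109-137378669 on the plus strand, reached 26.2 and 54.9 CPM in replicates 1 and 2. It had a count in 24 of 43 and 37 of 44 cells, and at least 10 counts in 8 and 21. Over both libraries that was 61 of 87 cells with a count (70.1%, exact interval 59.4 to 79.5%) and 29 with at least 10 (33.3%, exact interval 23.6 to 44.3%). Its counts were less concentrated than those of *Aplnr*, with 31.2% and 18.8% in the highest cell. Of the 3 other EphB receptor genes examined, *Ephb1* and *Ephb3* were at 0, and *Ephb2* had counts in 2 cells of replicate 2, with 25 of 26 counts in the collagen-high cell. Its ligand gene *Efnb2*, arterial ephrin-B2, reached 149 and 240 CPM and had a count in 34 of 43 and 44 of 44 cells, and at least 10 in 17 and 30. *Efnb1* reached 26.5 and 6.53 CPM, but 90.7% of its counts in replicate 1 lay in the 2 collagen-high cells, and without them it was at 2.58 CPM. *Efnb3* had counts in 3 cells.

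*Emcn*, at chr3:137341067-137432185 on the plus strand, reached 61.5 and 187 CPM in replicates 1 and 2, or 3.04 times more. It had a count in 30 of 43 cells and in all 44 cells of replicate 2, where the lowest cell held 1 count, the median was 21.5 and the highest was 269. At least 10 counts were seen in 10 and 27 cells, 42.5% of all 87 (exact interval 32.0 to 53.6%). Thinned to 20000 counts, 16 of 42 cells in replicate 1 and 32 of 44 in replicate 2 held an *Emcn* count. Thinning matched only the total count per cell, and the cause of the difference between libraries was not tested. A list of 6 sialomucin and glycocalyx genes was also read, which includes the adhesion genes *Pecam1* and *Cdh5*. Of these 6, *Cd34*, *Pecam1* and *Cdh5* were more abundant than *Emcn* in both libraries. *Cd34*, a sialomucin of endothelium and blood progenitors, reached 291 and 334 CPM, the platelet endothelial adhesion gene *Pecam1* 220 and 466 CPM. The sialomucin *Cd164*, at 77.8 and 120 CPM, lay above *Emcn* in replicate 1 and below it in replicate 2.

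*Nr2f2*, at chr7:70351944-70366735 on the minus strand, was rare. It reached 22.6 and 14.4 CPM in replicates 1 and 2, with a count in 8 of 43 and 7 of 44 cells. At least 10 counts were seen in 7 of 87 cells (8.05%, exact interval 3.30 to 15.9%). In replicate 1 the highest cells held 91, 51 and 23 counts. In replicate 2 a single cell held 154 counts, 84.2% of the library's total, and without it the level was 2.36 CPM. A few cells thus set the level of this transcription factor gene in both libraries.

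All 3 collagen-high cells were among the 7 cells with at least 10 *Nr2f2* counts. They held 23 and 51 counts in replicate 1 and 16 in replicate 2, or 36.6% and 8.74% of the *Nr2f2* counts. *Nr2f2* is also expressed in mesenchyme, and the part of these cells in its level was measured by leaving them out, which gave 15.0 and 13.3 CPM. The other 4 cells held 19, 14 and 91 *Nr2f2* counts in replicate 1 and 154 in replicate 2. Their counts of *Kdr*, the VEGF receptor of endothelium, were 94, 69, 430 and 281, while the collagen-high cells held 1, 0 and 29. The cell with 91 counts also held 105 of *Aplnr*, 279 of *Gja5* and 304 of *Efnb2*, so venous and arterial genes were high side by side. The cell with 154 counts held 353 of *Aplnr*, 187 of *Emcn* and 11 of *Gja5*.

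**Figure D1:**
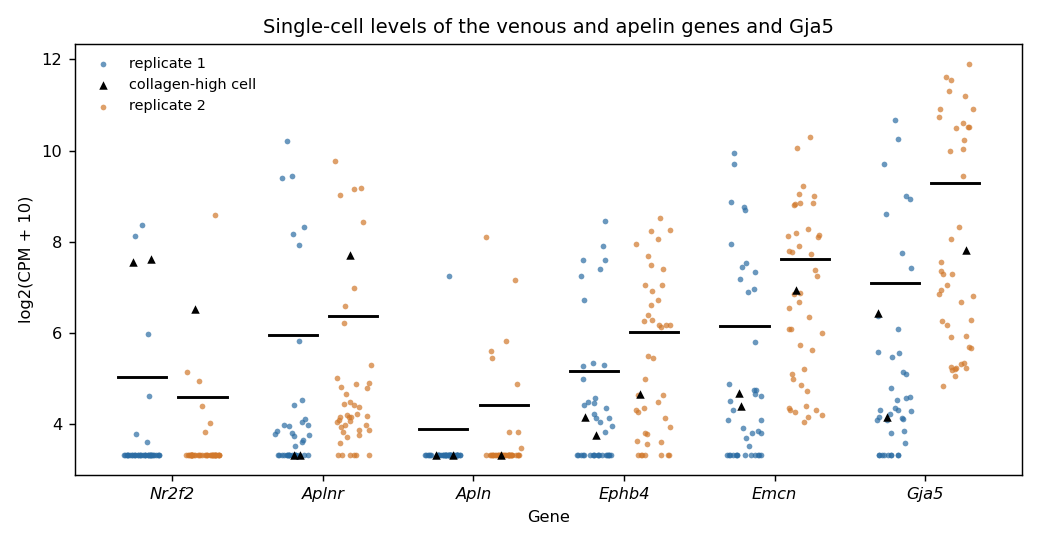
Level of each gene in single cells as log2(CPM + 10), by library (replicate 1, 43 cells; replicate 2, 44 cells). Points are cells, triangles are the 3 collagen-high cells and bars mark the CPM of the library's summed counts on the same scale. *Nr2f2* and *Apln* were at the lowest value in most cells, while *Emcn* and *Gja5* had counts in all 44 cells of replicate 2.

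The arterial gene *Gja5*, at chr3:96904693-97077416 on the plus strand, reached 126 and 615 CPM in replicates 1 and 2. It had a count in 34 of 43 and 44 of 44 cells, and at least 10 counts in 10 and 36. The median cell of replicate 1 held 10.01 CPM and that of replicate 2 held 147 CPM. Cells above the median of their library are called Gja5-high, which gave 21 high and 22 low cells in replicate 1 and 22 of each in replicate 2. The highest Gja5-low cell held 7 counts in replicate 1 and 56 in replicate 2, so the groups stand for different *Gja5* levels in the 2 libraries. As the split is on CPM, the groups overlap in *Gja5* counts. Of the 21 Gja5-high cells of replicate 1, 10 held at least 10 *Gja5* counts, and 1 cell held a single count.

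*Nr2f2* and *Aplnr* went opposite ways between the groups in the 2 libraries. In replicate 1, *Aplnr* was at 90.7 CPM in Gja5-high cells and 12.4 CPM in Gja5-low cells. In replicate 2 it was at 13.8 CPM in Gja5-high and 129 CPM in Gja5-low cells. Of the 8 cells of replicate 2 with at least 10 *Aplnr* counts, 7 were Gja5-low and the other was the collagen-high cell. In replicate 1, 4 of 6 were Gja5-high. One of these 4 held 84 of the 407 *Aplnr* counts in Gja5-high cells, with only 1 count of *Gja5*. *Nr2f2* was at 31.9 CPM in Gja5-high and 13.3 CPM in Gja5-low cells of replicate 1, and at 2.89 and 25.5 CPM in those of replicate 2. The values for *Nr2f2* rest on 1 cell in each library, with 91 of 143 counts in the Gja5-high cells of replicate 1 and 154 of 165 in the Gja5-low cells of replicate 2.

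*Apln*, *Ephb4* and *Emcn* were higher in the Gja5-high cells of both libraries, by differing amounts. That is 3 of 5 genes, beside 26.6% of all genes tested. *Ephb4* was at 30.1 against 22.3 CPM in replicate 1 and at 66.4 against 43.9 CPM in replicate 2, which is 1.35 and 1.51 times higher. In replicate 1 a single cell held 73 of the 99 counts of the Gja5-low cells. A count was seen there in 16 of 21 Gja5-high and 8 of 22 Gja5-low cells. In replicate 2 a single cell held 131 of the 414 counts of the Gja5-high cells, and a count was seen in 20 and 17 of 22 cells. *Emcn* was at 97.0 against 25.6 CPM in replicate 1 and at 222 against 154 CPM in replicate 2. An *Emcn* count was seen in 14 of 21 Gja5-high and 16 of 22 Gja5-low cells of replicate 1, and at least 10 in 7 and 3. In replicate 2 all cells had a count, and 14 and 13 of 22 had at least 10. *Apln* was at 9.59 against 0 CPM in replicate 1, all from 1 cell, and at 17.0 against 5.87 CPM in replicate 2, where 2 Gja5-high cells held 59 and 45 of 106 counts and a count was seen in 3 Gja5-high and 6 Gja5-low cells. This holds for the split at the median, and *Ephb4* and *Emcn* turned with the split at 10 *Gja5* counts given below.

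**Figure D2:**
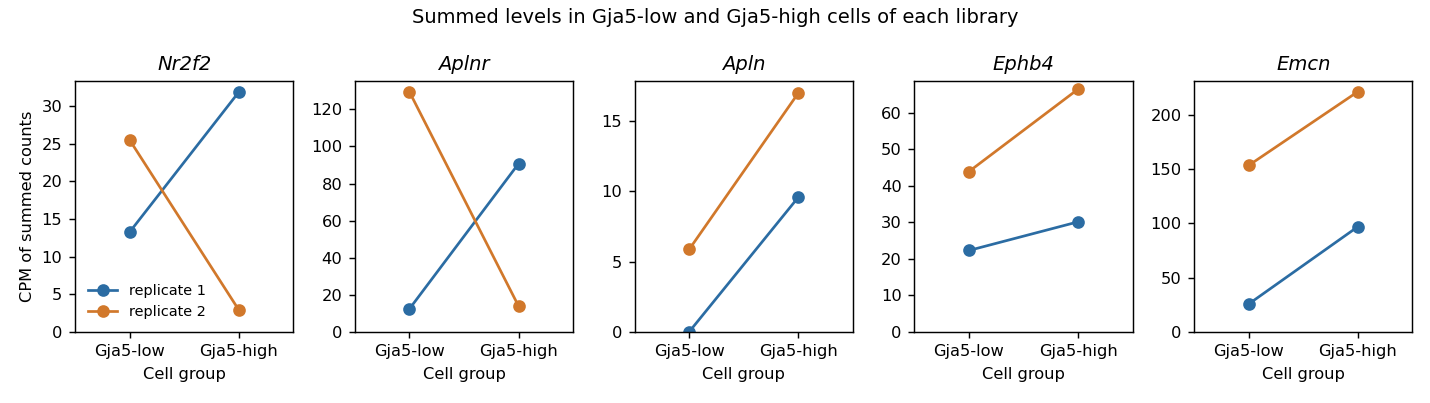
CPM of the summed counts of each gene in Gja5-low and Gja5-high cells, with a line joining the groups of each library. Lines cross for *Nr2f2* and *Aplnr* and slope upward in both libraries for *Apln*, *Ephb4* and *Emcn*.

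None of the 5 genes passed the test between Gja5-high and Gja5-low sums. With edgeR's quasi-likelihood test and Benjamini-Hochberg adjustment, 0 of 10653 genes were called (0%), and 433 had an unadjusted p under 0.05. The log2 fold changes, Gja5-high over Gja5-low, were 0.84 (SE 0.79) for *Emcn*, 0.54 (SE 0.78) for *Ephb4*, 2.18 (SE 2.33) for *Apln*, -0.15 (SE 1.40) for *Nr2f2* and -0.42 (SE 1.14) for *Aplnr*, each with an adjusted p of 1.00. Since the high and low sums of a number come from the same library, the fit was repeated with the library as a block, which called 94 of 10653 genes (0.882%), 85 higher and 9 lower. Again none of the 5 was called. With the block the adjusted p was 0.353 for *Emcn* (log2 fold change 1.20) and 0.928 for *Apln*, and 1.00 for *Nr2f2*, *Aplnr* and *Ephb4*. DESeq2 without a block called 89 genes. Splitting the cells at 10 *Gja5* counts instead, chosen after seeing the data, turned the direction for 4 genes, with log2 fold changes of 2.46 for *Nr2f2*, 0.46 for *Aplnr*, -0.27 for *Ephb4* and -0.54 for *Emcn*.

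The arterial list behaved as a group around *Gja5*. Of its 18 genes 16 were tested, and 15 were higher in the Gja5-high cells of both libraries, as were 26.6% of all genes tested, with a median log2 fold change of 1.99 beside -0.003 over all genes tested. With the library block 10 of them were called higher and none lower, beside 0.882% of all genes called, and without it none was called. *Nrp1*, a receptor for semaphorins and VEGF, had a log2 fold change with the block of 1.75 (adjusted p = 3.15e-05 in edgeR). *Gja4*, the other arterial connexin, had 3.19 (4.38e-08). *Notch1*, the receptor of arterial specification, had 1.38 (0.0432).

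Of the ephrin-B2 and EphB4 pair, the ligand gene was called with the block and the receptor gene was not. *Efnb2* was at 255 against 43.4 CPM in Gja5-high and Gja5-low cells of replicate 1 and at 379 against 106 CPM in those of replicate 2. With the block its log2 fold change was 2.18 (adjusted p = 0.000695 in edgeR), against 0.50 for *Ephb4*, and the difference between these genes was not tested. Of the 6 ephrin-B and EphB genes other than *Ephb4* only *Efnb1* and *Efnb2* were tested, and both were higher in both libraries, beside 26.6% of all genes tested. Only *Efnb2* was called with the block, beside 0.882% of all genes, and neither was called without it. In replicate 1, 90.7% of the *Efnb1* counts lay in the 2 collagen-high cells.

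Of the apelin system genes 9 were tested between the groups. Of these 3 were higher in Gja5-high cells of both libraries, 6 went opposite ways (26.6% and 43.0% of all genes tested) and none was called with or without the block, with a median log2 fold change of 0.13. Of the 6 genes of the sialomucin and glycocalyx list 5 were tested, and all 5 were higher in both libraries with a median of 0.73, beside 26.6% of all genes tested. The adhesion genes *Cdh5* and *Pecam1* in this list had log2 fold changes of 1.07 and 0.91. The sialomucin genes *Cd34* and *Cd164* had 0.14 and 0.54. *Cdh5* was called with the block, beside 0.882% of all genes, and was not called without it.

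Of the 12 other venous and capillary genes 9 were tested, 2 were higher in Gja5-high cells of both libraries (22.2%, beside 26.6% of all genes tested), 3 were lower in both (33.3% beside 27.6%) and 4 went opposite ways (44.4% beside 43.0%). Their median log2 fold change was -0.21. The 2 called with the block, beside 0.882% of all genes, were *Vwf* and *Plvap*, both higher, and neither was called without it. *Vwf*, the clotting factor made by endothelium, was at 453 against 53.5 CPM in replicate 1 and at 733 against 88.7 CPM in replicate 2. *Lyve1*, a hyaluronan receptor of lymphatic and yolk sac endothelium, was at 985 against 462 CPM in replicate 1 and at 460 against 1327 CPM in replicate 2. *Stab2*, a scavenger receptor of sinusoidal endothelium singled out after its values were seen, was at 160 against 68.4 CPM and at 87.6 against 694 CPM. *Lyve1* and *Stab2* thus went opposite ways in the 2 libraries, as did *Aplnr*, *Nr2f2* and 43.0% of all genes tested.

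Genes of the blood program ran the other way from the arterial list. All 8 were tested and all 8 were lower in the Gja5-high cells of both libraries, as were 27.6% of all genes tested, with a median log2 fold change of -1.10, although none was called with or without the block. *Runx1* had a log2 fold change of -0.34, *Adgrg1*, an adhesion receptor of emerging stem cells, -0.55, *Neurl3*, an E3 ligase of hemogenic endothelium, -0.99, and *Kit*, the receptor used in the sort, -1.20. Of the 7 hematopoietic markers, which share 4 genes with this list, those 4 were lower in both libraries and *Ptprc*, *Spn* and *Itga2b* went opposite ways. Endothelial markers summed to 3758 CPM in Gja5-high against 1760 CPM in Gja5-low cells of replicate 1 and to 5466 against 4113 CPM in replicate 2. Of the 8 markers 7 were higher in both libraries, beside 26.6% of all genes tested, and *Kdr* went opposite ways. Only *Cdh5* was called, with the block and not without it, beside 0.882% of all genes called with the block. Mesenchymal markers summed to 974 against 698 CPM and to 651 against 21.2 CPM, as the collagen-high cell of replicate 2 was Gja5-high. All 5 mesenchymal genes tested were higher in both libraries, beside 26.6% of all genes tested. In replicate 1 each group held 1 of the 2 collagen-high cells. *Col1a1* was called with the block (adjusted p = 0.0294 in edgeR), beside 0.882% of all genes, and not without it. The collagen-high cell of replicate 2 held 1589 of the 1632 *Col1a1* counts in the Gja5-high cells of that library. The part of these cell types in the values of the 5 genes was not tested, apart from the fits without the collagen-high cells. Those gave log2 fold changes of -0.60 for *Nr2f2*, -0.42 for *Aplnr*, 2.24 for *Apln*, 0.58 for *Ephb4* and 0.88 for *Emcn*, and for *Nr2f2* -2.18 with the block as well, against -0.92 with the block and all cells.

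Correlations over cells are given as descriptions within each library (43 and 44 cells, which share a library and differ in depth). *Ephb4* had a Spearman correlation with *Gja5* of 0.36 in replicate 1 and 0.27 in replicate 2. *Ephb4* was also correlated with each of 5859 other genes with a count in at least 30% of the cells of each library. Its values with *Gja5* lay above those with 99.0% and 92.9% of these genes. For *Emcn* the correlation with *Gja5* was 0.01 in both libraries. It was 0.09 and -0.16 for *Aplnr*, and 0.01 and -0.21 for *Nr2f2*. *Apln* had too few cells for a value in replicate 1 and -0.12 in replicate 2. At 20000 counts per cell the values for *Ephb4* were 0.17 and 0.19, and those for *Aplnr* were 0.10 and -0.37. Correlations of the 5 genes with the total counts of the cell lay between -0.25 and 0.17. Those of *Gja5* were 0.24 in replicate 1 and -0.19 in replicate 2, and the part of depth in the relations to *Gja5* was not tested.

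**Figure D3:**
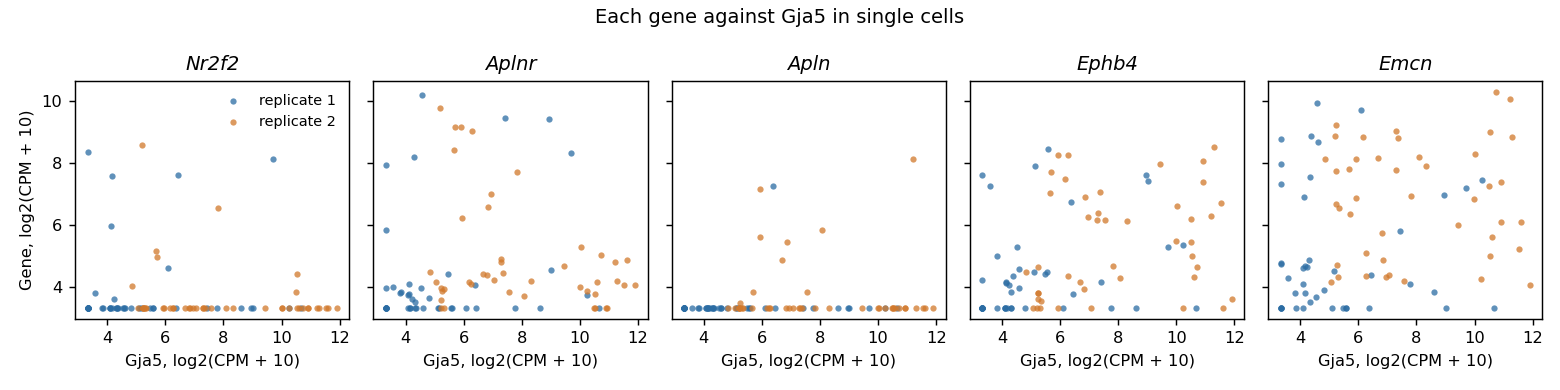
Level of each gene against *Gja5* in single cells, both as log2(CPM + 10), with replicate 1 and replicate 2 in separate colours. In replicate 2 the cells with the most *Aplnr* lie at low *Gja5*, while *Emcn* had a Spearman correlation with *Gja5* of 0.01 in each library.

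Between the genes themselves no Spearman correlation over all cells at full depth passed 0.35. *Aplnr* and *Ephb4* had 0.35 and 0.23, *Nr2f2* and *Emcn* 0.28 and 0.24, *Aplnr* and *Emcn* 0.22 and 0.16, and *Nr2f2* and *Aplnr* 0.10 and 0.25. *Ephb4* and *Emcn* had -0.07 and 0.21. Some values moved with the measure. As Pearson's r of log2(CPM + 10), *Nr2f2* and *Aplnr* had 0.22 and 0.59, and in thinned cells *Aplnr* and *Emcn* had a Spearman correlation of 0.47 and 0.18. In thinned cells *Ephb4* and *Emcn* had -0.05 and -0.02. At high counts the pairs overlapped in part. Of the cells with at least 10 *Aplnr* counts, 2 of 6 in replicate 1 and 6 of 8 in replicate 2 also had at least 10 of *Ephb4*, against 16.2% and 41.7% of the cells without. Both *Nr2f2* cells of replicate 2 with at least 10 counts, and 2 of the 5 of replicate 1, also had at least 10 of *Aplnr*.

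*Aplnr* had correlations above 0 in both libraries with *Stab2* and *Dab2*, among other genes. Its correlation with *Stab2* was 0.28 in replicate 1 and 0.46 in replicate 2, and 0.22 and 0.57 at 20000 counts per cell. With *Dab2*, of the same venous and capillary list and named after its values were seen, it was 0.30 and 0.12, and 0.50 and 0.30 at 20000 counts per cell. With *Nrp2*, the venous and lymphatic semaphorin receptor, also singled out after its values were seen, it was 0.00 and 0.51. *Ephb4* and *Cdh5* had 0.52 in replicate 2 but 0.14 in replicate 1. The correlations with *Runx1* were below 0 in both libraries for *Nr2f2* (-0.16 and -0.31), *Aplnr* (-0.08 and -0.27) and *Ephb4* (-0.07 and -0.07). At 20000 counts per cell they were -0.37 and -0.34 for *Aplnr* and -0.26 and -0.21 for *Ephb4*.

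**Figure D4:**
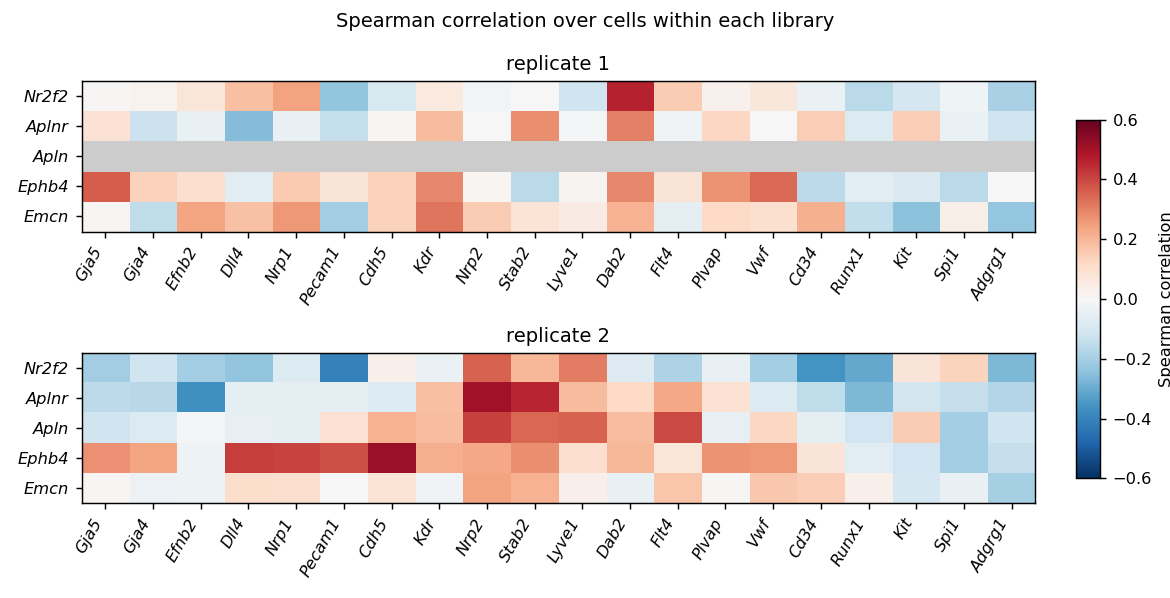
Spearman correlation over cells between each gene (rows) and arterial, endothelial, venous and hematopoietic genes (columns), in replicate 1 above and replicate 2 below. Grey marks *Apln* in replicate 1, which had a count in 1 cell. *Aplnr* with *Stab2* (0.28 and 0.46) and *Ephb4* with *Gja5* (0.36 and 0.27) are above 0 in both libraries.

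The genes most like each gene were taken as those with the highest smaller value of the 2 within-library correlations. For *Aplnr* they were *Klhl22*, *Nrep*, *Sgk1*, *Stab2* and *Ctsz*, with smaller values from 0.347 down to 0.276. For *Ephb4* they were *Serpinb6a*, *Itga5*, *Nrep*, *Sptbn1* and *Ece1*, from 0.405 down to 0.346. For *Nr2f2* they were *Ube2d1*, *BC003331*, *Col5a1*, *Rps15* and *Ostc*, from 0.359 down to 0.329, and *Col5a1* is itself a collagen gene. For *Emcn* they were *Pla2g16*, *Hsf2*, *Csnk1d*, *Mad2l1* and *Qsox1*, from 0.329 down to 0.298. For *Gja5* they were *Adgrg6*, *Fstl1*, *Oaz2*, *Acer2* and *Igf2*, from 0.592 down to 0.533. *Apln* had too few cells for this measure. Some of these values fell in thinned cells, where *Csnk1d* had 0.03 with *Emcn* in replicate 1 and *Ctsz* 0.08 and 0.04 with *Aplnr*. With *Gja5* in replicate 2, *Acer2* and *Oaz2* had 0.33 and 0.38 in thinned cells, while *Adgrg6*, *Fstl1* and *Igf2* had 0.64, 0.54 and 0.56.

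The cells rich in *Aplnr* were compared with the remaining cells of their library as a description, with the collagen-high cells set aside. In replicate 2 the 7 cells with at least 10 *Aplnr* counts held *Stab2* at 1742 CPM against 184 CPM in the other 36 cells. *Lyve1* was at 2268 against 676 CPM and *Nrp2* at 283 against 36.4 CPM. *Gja5* was at 62.2 against 710 CPM, and *Efnb2* at 96.5 against 265 CPM. *Runx1* was at 16.3 against 158 CPM. Not all genes of these lists followed. *Vwf*, of the venous and capillary list but higher in the Gja5-high cells of both libraries, was at 99.5 against 460 CPM. The arterial *Acvrl1* was at 217 against 116 CPM.

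In replicate 1 the picture was only partly the same. The 6 cells with at least 10 *Aplnr* counts held *Stab2* at 352 against 92.4 CPM in the other 35 cells, and *Runx1* at 62.6 against 343 CPM. Without the highest cell of each gene the *Aplnr*-rich cells were at 198 CPM for *Stab2* and 4.85 CPM for *Runx1*, where 1 cell held 52 of 55 counts. *Gja5* was higher in them, at 392 against 99.7 CPM, and *Efnb2* at 437 against 120 CPM. A single cell held 279 of the 344 *Gja5* counts and 304 of the 384 *Efnb2* counts, and without it the values were 121 and 149 CPM. *Lyve1* was at 672 against 755 CPM, but 1 of the other cells held 1734 counts, and without it they were at 562 CPM. The median depth was 87700 counts in the *Aplnr*-rich cells and 161402 in the others, and in replicate 2 it was 208354 and 253714. Macrophage markers summed to 441 against 198 CPM in replicate 1 and 555 against 133 CPM in replicate 2, mostly from *Mrc1*, while *Cx3cr1* and *Adgre1* were at 0. Not all of them were higher. In replicate 1 *Lyz2* was at 2.28 against 74.2 CPM and *Csf1r* at 0 against 6.53 CPM, while *Mrc1* and *Cd68* were higher. In replicate 1 a single *Aplnr*-rich cell held 255 of their 349 *Mrc1* counts, and without it *Mrc1* fell from 397 to 175 CPM. Endothelial markers summed to 5704 against 2551 CPM and to 6916 against 4500 CPM, and hematopoietic markers to 198 against 714 CPM and to 46.5 against 321 CPM. In replicate 1 the endothelial *Pecam1*, at 190 against 234 CPM, and *Esam*, at 245 against 307 CPM, went against their sum. So did the hematopoietic *Myb*, at 91.1 against 72.9 CPM, with 78 of its 80 counts in 1 cell. The other markers of these 2 lists went with their sums in replicate 1.

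Promoter sequences were taken from a set of RefSeq promoters on GRCm38.p6. In the set used 4 of the 5 genes had an entry and *Aplnr* had none. Those of *Ephb4* and *Gja5* are shown because *Ephb4* had the highest correlation with *Gja5* of the genes with a value in both libraries, and that of *Emcn* because it was the most abundant of the 5 genes. Each is 300 bases on the gene's own strand. The entries of *Ephb4* (chr5:137349859-137350158, plus strand) and *Gja5* (chr3:97032152-97032451, plus strand) run from 250 bases before to 50 after the start of their RefSeq genes. For *Gja5* that start lies inside the longer GENCODE gene given above. The entry of *Emcn* (chr3:137340828-137341127, plus strand) runs from 234 before to 66 after the start of its RefSeq gene. Capitals mark the ETS-type motif AGGAAG on either strand.
Ephb4: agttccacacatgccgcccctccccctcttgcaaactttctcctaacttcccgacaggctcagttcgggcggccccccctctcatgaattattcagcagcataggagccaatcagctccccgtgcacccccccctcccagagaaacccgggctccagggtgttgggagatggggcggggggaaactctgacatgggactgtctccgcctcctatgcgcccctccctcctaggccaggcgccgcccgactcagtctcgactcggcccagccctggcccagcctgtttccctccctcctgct
Gja5: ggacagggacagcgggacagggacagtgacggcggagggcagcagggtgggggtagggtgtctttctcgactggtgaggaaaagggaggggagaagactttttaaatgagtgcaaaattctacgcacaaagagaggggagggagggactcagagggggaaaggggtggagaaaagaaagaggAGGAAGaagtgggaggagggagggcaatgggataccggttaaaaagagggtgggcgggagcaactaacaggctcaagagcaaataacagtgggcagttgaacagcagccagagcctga
Emcn: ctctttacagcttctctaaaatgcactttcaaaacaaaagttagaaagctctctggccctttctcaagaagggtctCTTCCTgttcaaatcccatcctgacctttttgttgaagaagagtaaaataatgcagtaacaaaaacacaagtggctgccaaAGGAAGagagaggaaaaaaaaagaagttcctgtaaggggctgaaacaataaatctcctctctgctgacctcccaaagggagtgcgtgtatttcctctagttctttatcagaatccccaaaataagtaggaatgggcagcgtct

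Matches to short motifs of endothelial regulators were counted on both strands. The ETS-type motif AGGAAG matched once in *Gja5*, *Nr2f2* and *Apln*, 2 times in *Emcn* and 0 times in *Ephb4*. It is held by 35.4% of the 32851 promoters of this length. The GATA-type motif GATAA, in 25.4% of promoters, and the SOX-type motif ACAAT, in 31.0%, each matched 1 time in *Emcn* and 0 times in the other 4. No base lay in more than 1 of these motifs. *Ephb4* and *Gja5* shared none of the 3 motifs in this window.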

How the data were processed

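The authors sorted yolk sac PK44 cells, made modified STRT-seq libraries, aligned reads to mm10 with HISAT2 2.1.0 and counted them with HTSeq, removing duplicates by UMI. The deposited values were raw counts per gene and cell, and every deposited cell was kept. Doublets were not called. The tables of barcodes hold no measurement and were not used.

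Genes and lists were chosen with earlier results of these data known. Named genes were the 5 genes, *Gja5*, up to 4 most abundant genes of each list and, by correlation, the 5 most alike. Of the lists, 2 genes are not reported here. Counts were summed per library and *Gja5* group and compared by the quasi-likelihood test of edgeR 4.0.16 under R 4.3.3, after filterByExpr and with TMM factors, in a procedure first tested on simulated data. Adjustment (Benjamini-Hochberg) ran over all genes but *Gja5*, with 0.05 as threshold. Alternatives were a library block, DESeq2 1.42.0, other size factors, no filter, thinning to 20000 counts (1 cell left out), other splits and left-out cells or libraries. Pairing was taken from the shared library. Deviations of sums sharing a library correlated at 0.202. Intervals, also those for a count of 0, are exact (Clopper-Pearson) and cover counting error only. Positions are from GENCODE M21, where 95.6% of symbols were found. Tables used Python 3.11.15.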

Additional observations from a re-analysis of the deposited data

How the results depend on the processing

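No alternative called any of the 5 genes. The count of genes called, 0 in the fit without a block, was 94 with the library as a replicate block, 89 with DESeq2, 50 with no low-count filter and 104 with the block and without the collagen-high cells, a pairing of choices added after seeing the data. It stayed 0 with RLE size factors, thinned cells and without the collagen-high cells, and the cause of these differences was not tested.

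Splitting cells at 10 *Gja5* counts, chosen after seeing the data, turned the log2 fold change of 4 genes, to 2.46 for *Nr2f2*, 0.46 for *Aplnr*, -0.27 for *Ephb4* and -0.54 for *Emcn*. This split puts 10 of 43 and 36 of 44 cells in the high group. Leaving out a library in turn, a value with no test, gave -3.10 to 1.21 for *Nr2f2*, -3.22 to 2.82 for *Aplnr*, 1.53 to 6.42 for *Apln* (whose upper value hangs on the prior count, as its Gja5-low sum in replicate 1 was 0), 0.39 to 0.60 for *Ephb4* and 0.54 to 1.87 for *Emcn*. In thinned cells the log2 fold change was 0.25 for *Emcn*, -0.48 for *Nr2f2*, -0.44 for *Aplnr* and 0.82 for *Ephb4*. Adjusted p over the other settings ran from 0.327 to 1.00 for *Emcn*.

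The correlation of *Ephb4* with *Gja5*, 0.32 as the mean of both libraries, was 0.18 in thinned cells and 0.24 as Pearson's r of log2(CPM + 10). That of *Emcn*, 0.01, was 0.0042 and 0.040. A split by any *Gja5* count could not be made in replicate 2, where all cells had one. Thinned cells gave no fold change for *Apln* and no correlation for *Nr2f2*, for want of counts.

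With 2 libraries and few high cells, levels of *Nr2f2* and *Apln* rest on single cells, and the *Gja5* split of replicate 1 lies at few counts.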
